A study of Mus musculus with 6 samples.

Results

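Glomerular endothelial cells are the flattened, fenestrated cells that line the filtering capillaries of the kidney, and 45 genes of their actin cytoskeleton, among 12911 genes listed for each library, are described here. The 45 were taken by name for what their products do: the actins, the proteins that decorate, branch, bundle, cut or pull on actin filaments, the proteins that tie filaments to the membrane and to adhesions, and cortactin with its 2 named binding proteins. The set was chosen with earlier results of these data known. All 45 were listed, and all 45 passed the filter on low counts. RNA came from EYFP+ cells sorted from glomeruli of eNOS-null mice, which lack the endothelial nitric oxide synthase, and this allele was shared by both groups. The control group had no treatment (3 libraries), and the STZ group (3 libraries) had received STZ, the usual abbreviation of streptozotocin, a toxin of insulin-producing cells used to make mice diabetic. Each library held RNA pooled from 4 mice, so the spread between libraries is a spread between pools and p-values measure that spread. The labels used here name no age, strain or sex of the mice, no STZ dose or time, and no promoter for EYFP.

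Actin is a protein that polymerises into polar filaments. The Arp2/3 complex starts branches on existing filaments, cofilin cuts and disassembles them, profilin feeds new monomers to their growing ends, and tropomyosins coat them and set how myosin can pull on them. Cortactin binds filament branches made by the Arp2/3 complex and keeps them from coming apart. In endothelium a cortical rim of actin supports cell junctions and the barrier, and stress fibres pull against adhesions to the basement membrane.

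Among the genes that passed the test, the related pair Cttnbp2 and Cttnbp2nl differed in opposite directions, and the stretch around each start is shown here so that the pair can be compared. Cttnbp2 lay on the minus strand of chromosome 6 (18366477 to 18514825 in the coordinates of the deposited tables, build mm10), and Cttnbp2nl on the minus strand of chromosome 3 (105001915 to 105052953). The windows run from 250 bases before to 50 bases after the RefSeq start on GRCm38.p6, the build also called mm10. They span chr6:18514820-18515119 and chr3:105052904-105053203, and both are read 5′ to 3′ along the minus strand. Capitals mark the GC box GGGCGG, searched on both strands.
Cttnbp2: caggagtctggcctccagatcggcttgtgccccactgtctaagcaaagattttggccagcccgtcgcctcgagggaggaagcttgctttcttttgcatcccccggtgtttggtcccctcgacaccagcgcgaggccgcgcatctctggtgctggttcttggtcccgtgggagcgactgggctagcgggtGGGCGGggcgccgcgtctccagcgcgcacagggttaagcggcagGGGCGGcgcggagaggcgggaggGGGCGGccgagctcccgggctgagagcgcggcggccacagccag
Cttnbp2nl: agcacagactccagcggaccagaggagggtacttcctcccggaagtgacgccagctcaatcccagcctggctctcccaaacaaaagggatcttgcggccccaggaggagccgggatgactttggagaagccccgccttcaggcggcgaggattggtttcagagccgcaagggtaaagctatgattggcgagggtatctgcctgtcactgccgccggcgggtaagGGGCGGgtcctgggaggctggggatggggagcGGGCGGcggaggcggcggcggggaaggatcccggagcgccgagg
The start listed for Cttnbp2 in the deposited tables differed from the RefSeq start by 44 bases. Its window held 3 GC boxes, 30 CpG dinucleotides and 69.3% G or C. The Cttnbp2nl window held 2 GC boxes, 23 CpG and 66.3% G or C. Over all 32851 starts in the RefSeq promoter table, not limited to genes read in these libraries, the medians were 7 CpG and 52.7% G or C. So both genes of the pair had a CpG-rich start of the same general kind, although their levels differed in opposite directions.

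Of the 45 genes, 42 matched the promoter table. The GC box was present in 34 of them (81.0%), against 35.7% of all starts, and the TATA motif TATAAA in 2 (4.76%; Cald1 and Myh9), against 13.6%. The CArG box, the sequence bound by serum response factor, was present in 4 (9.52%), against 535 of all starts (1.63%). These 4 windows are shown because the motif is found at few starts, with the CArG box in capitals and 20 bases on each side.
Actg1: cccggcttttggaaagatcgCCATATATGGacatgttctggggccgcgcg
Cnn2: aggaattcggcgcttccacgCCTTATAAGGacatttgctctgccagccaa
Myl9: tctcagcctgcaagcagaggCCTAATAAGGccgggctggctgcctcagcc
Vcl: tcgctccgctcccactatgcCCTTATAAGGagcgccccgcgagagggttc
The windows lie at chr11:120348556-120348605 (minus strand), chr10:79988524-79988573 (plus), chr2:156775283-156775332 (plus) and chr14:20929151-20929200 (plus). The box began 90, 56, 161 and 227 bases before the RefSeq start. Of these genes Cnn2 was higher in STZ pools, whereas Actg1, Myl9 and Vcl did not pass the test, with log2 fold changes of 0.12, -0.29 and -0.06. A match of letters is a description, and says nothing of whether a factor was bound.

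Total counts were 4387339 to 8751732.5 in control pools and 10734376 to 12662371.5 in STZ pools, so every STZ pool was deeper. The smallest count of any of the 45 genes in a library was 80. Nos3, the gene of the null allele, was read at 840 ± 80.5 CPM in control and 676 ± 68.3 CPM in STZ pools (CPM, the count scaled to a common library size, SD, n = 3), so its reads do not tell how the allele was made null. Endothelial markers were abundant in every pool, with summed levels of 13550 to 14650 CPM in control and 18890 to 20130 CPM in STZ pools. Of the 10 markers 5 were called higher in STZ (50.0%, against 5.47% of all tested genes). Podocyte markers summed to 7201, 7978 and 5055 CPM in control and 6869, 5633 and 6826 CPM in STZ pools, so RNA of another glomerular cell was present in both groups. Podxl alone gave 2956 to 4021 CPM of these sums, with a log2 fold change of 0.05. By gene, 10 of the 12 markers had lower values in STZ pools, and the median log2 fold change was -0.63. Of the 12 podocyte markers 0 passed edgeR's test, DESeq2 or limma-voom (3 had an unadjusted p under 0.05), but without control pool 3, the lowest control pool, 9 were called lower in STZ. Erythroid markers summed to 24.4 to 62.6 CPM in control and 136 to 223 CPM in STZ pools. Xist, the RNA of the inactive X chromosome, stood at 709 ± 32.4 CPM in control and 0.687 ± 0.261 CPM in STZ pools, and the Y-linked Ddx3y at 3.07 ± 0.375 and 135 ± 4.09 CPM. Every difference between STZ and control in these data is therefore also a difference in Xist and Y-linked RNA, and STZ and sex cannot be told apart.

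Of the 45 genes, 10 passed the test at an adjusted p under 0.05, 9 higher and 1 lower in STZ pools. The genes that rose encode 2 subunits of the Arp2/3 complex (Arpc1b, Arpc3), the calponin-family proteins Cnn2, Cnn3 and Tagln2, the filament-cutting cofilin Cfl1, the membrane linker moesin (Msn), the adhesion scaffold paxillin (Pxn) and Cttnbp2nl. The gene that fell was Cttnbp2. These 10 are 22.2% of the 45, and 9.78% of all 12786 tested genes passed. Of all tested genes 5.47% were higher, beside the 9 of 45 here, and 4.32% were lower, beside 1 of 45 (2.22%). Without control pool 1, control pool 2, STZ pool 1 or STZ pool 3 the number called was 5, 6, 4 and 5, so the size of this count rests on having all pools. Over all genes the number called in these runs was 720, 1027, 662 and 841, against 1251 with all pools, so the background fell as well. Libraries of the groups did not overlap for 20 of the 45 genes (44.4%; 15 higher and 5 lower), against 29.1% of all tested genes. Because the 45 were chosen with earlier results of these data known, the shares of the 45 beside those of all genes are a description, not a test. Counts given below for single roles are of 2 to 11 genes and stand beside the same 9.78%. The median log2 fold change (STZ over control) of the 45 was 0.12, and over all tested genes -0.01. Without STZ pool 1 the median of the 45 was 0.0627, and without control pool 1 it was 0.0725. Together the 45 genes took 1.63% ± 0.0436 of all normalised counts in control and 1.77% ± 0.0684 in STZ pools (SD, n = 3). The test was edgeR's quasi-likelihood test with Benjamini-Hochberg adjustment over all tested genes, and a fold change is given with the SE of the fit. In bulk RNA, fewer cells of a type and less RNA per cell cannot be told apart.

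**Figure D1:**
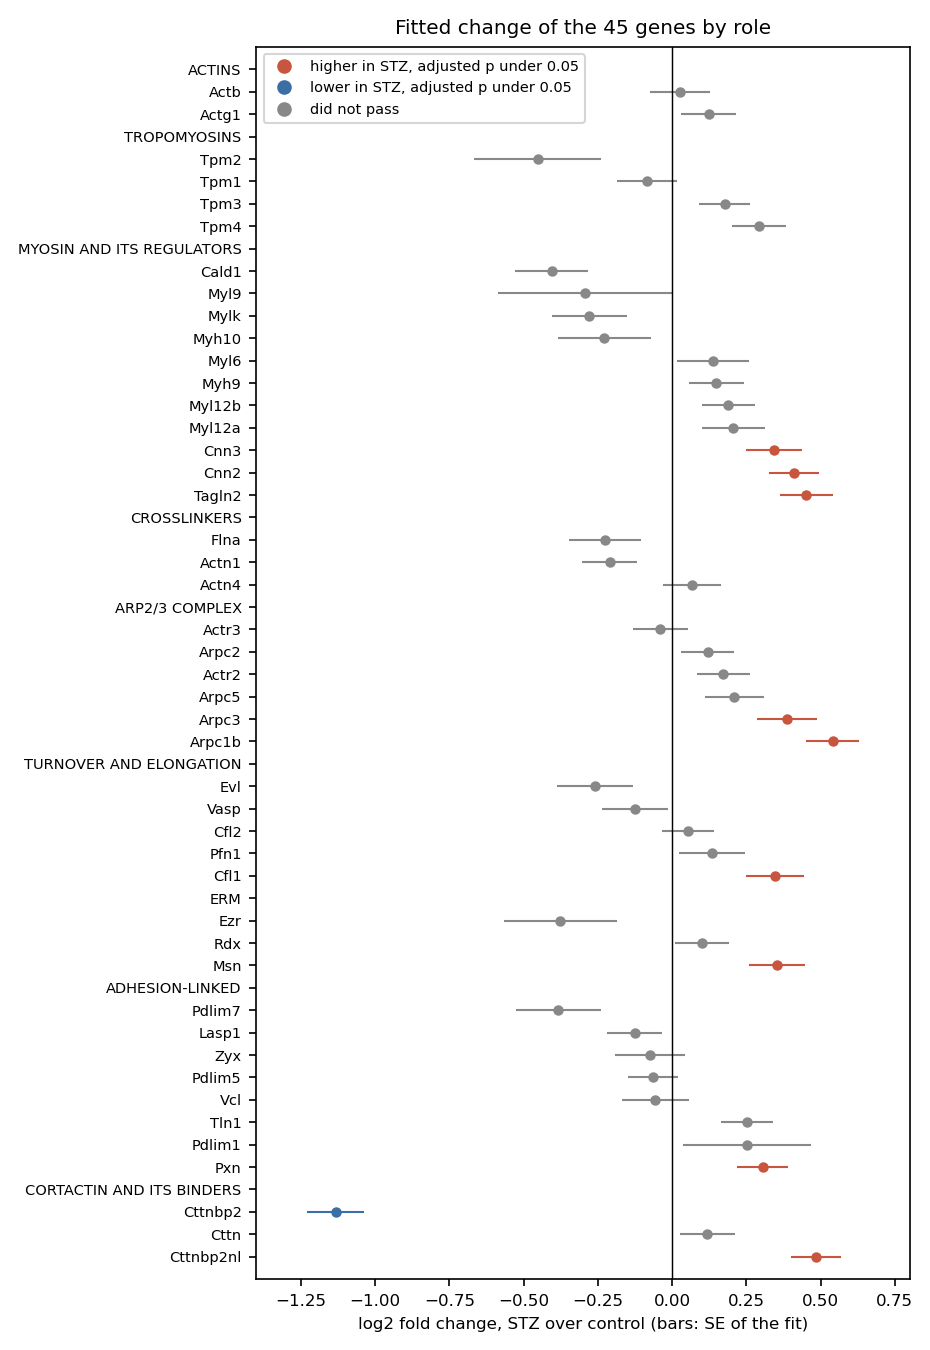
Fitted log2 fold change of each of the 45 genes, STZ over control (horizontal axis, log2), by role, with bars of 1 SE. Red points (9) were higher and the blue point (Cttnbp2) lower at an adjusted p under 0.05 in edgeR's quasi-likelihood test, and the 35 grey points did not pass.

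Cortactin and its binding proteins were the group in which the 2 directions met. Cttn, the gene of cortactin, was measured at 195, 175 and 211 CPM in the control pools and 207, 208 and 216 CPM in the STZ pools. The groups overlapped, with a log2 fold change of 0.12 ± 0.09 and an adjusted p of 0.484 in edgeR's quasi-likelihood test, which does not show that its level was equal. Cttnbp2, best known in neurons, where its product binds cortactin and stabilises dendritic spines, was measured at 136, 130 and 159 CPM in the control pools. In the STZ pools it was at 62.6, 63.9 and 66.6 CPM. All 3 STZ pools lay below every control pool and within a few CPM of each other, and the mean was 2.19-fold lower (log2 fold change -1.13 ± 0.10, adjusted p = 1.07e-05 in edgeR's quasi-likelihood test).

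Cttnbp2nl, the paralog named for its likeness to the N-terminal part of Cttnbp2, moved the other way. Its control pools were at 132, 120 and 133 CPM and its STZ pools at 180, 180 and 179 CPM, with no overlap. The mean was 1.40-fold higher (log2 fold change 0.48 ± 0.08, adjusted p = 0.00253 in edgeR's quasi-likelihood test). Cttnbp2nl has 3 listed transcripts, and how the deposited value combines them is not given in the sources used here. Per kilobase of transcript, Cttnbp2 and Cttnbp2nl were at similar levels in control pools (23.9 ± 2.60 and 26.5 ± 1.49 CPM per kilobase), and in STZ pools at 10.9 ± 0.341 and 37.1 ± 0.122 (SD, n = 3). Cttnbp2 was 47.3% ± 1.83 of the sum of the pair in control pools and 22.6% ± 0.59 in STZ pools. The exact permutation test of that share gave p = 0.10, the smallest that 3 against 3 libraries allow, and 0.167 adjusted over the 15 shares tested. Both genes passed the test under all 15 alternative settings, with log2 fold changes from -1.19 to -1.04 and from 0.44 to 0.52.

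**Figure D2:**
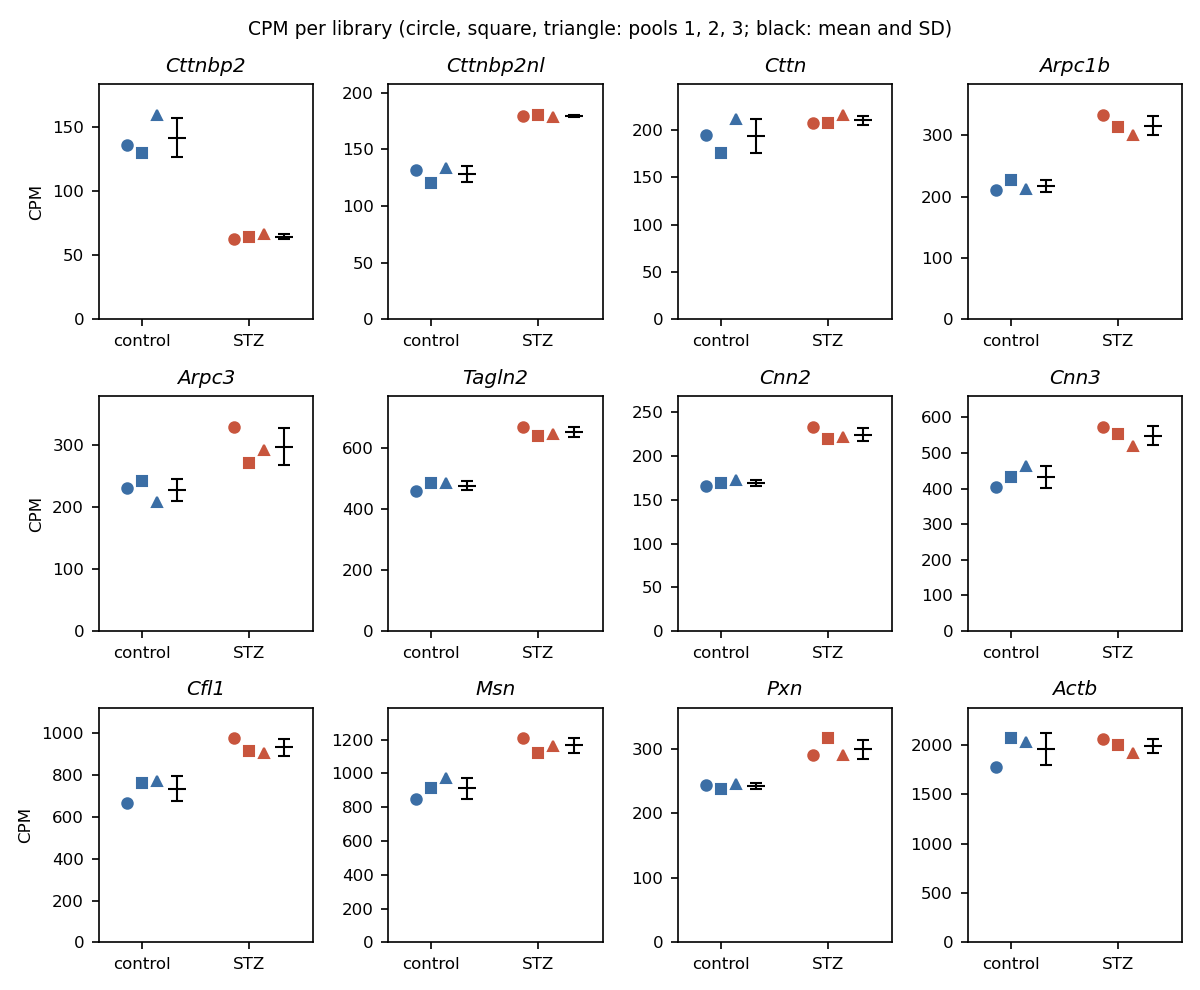
Level of the 10 genes that passed the test and of Cttn and Actb in each library, in CPM on a linear axis from 0, with the mean of each group as a line and its SD as a bar (n = 3 pools). The STZ pools of Cttnbp2 sit between 62.6 and 66.6 CPM, below all control pools, those of the 9 genes that rose sit above all control pools, and Cttn and Actb overlap.

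The Arp2/3 complex is built from the actin-related proteins Arp2 and Arp3 (Actr2, Actr3) and smaller subunits, and 2 of the 6 subunit genes in the set rose. Arpc1b, whose product takes part in assembling the complex, was at 211, 228 and 213 CPM in control and 333, 314 and 301 CPM in STZ pools. Every STZ pool was above every control pool (log2 fold change 0.54 ± 0.09, adjusted p = 0.00173 in edgeR's quasi-likelihood test), and the call held under all 15 alternative settings.

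Arpc3 is the most abundant subunit gene of the 6 per kilobase, at 268 ± 20.6 and 351 ± 35.4 CPM per kilobase in control and STZ pools. Its libraries were at 231, 243 and 208 CPM in control and 330, 271 and 292 CPM in STZ pools, and did not overlap (log2 fold change 0.39 ± 0.10, adjusted p = 0.0288 in edgeR's quasi-likelihood test). The call ended on leaving out 1 pool in 4 of 6 cases, with an adjusted p of 0.0922 and 0.0561 for control pools 1 and 3 and of 0.165 and 0.0789 for STZ pools 1 and 3. The remaining subunit genes did not pass: log2 fold changes were 0.21 ± 0.10 for Arpc5, 0.17 ± 0.09 for Actr2, 0.12 ± 0.09 for Arpc2 and -0.04 ± 0.09 for Actr3. Among 23 other genes of the complex and of filament capping and bundling, 3 were higher and 0 lower (13.0% called, against 9.78% of all tested genes). They were Capzb (0.36 ± 0.09), a subunit of the capping protein that closes fast-growing ends, and the bundling protein fascin Fscn1 (0.54 ± 0.13). The last was Twf1 (0.30 ± 0.09), whose product twinfilin binds monomers and caps ends. Without control pool 1 or STZ pool 1 none of the 3 passed (0 calls higher), without STZ pool 2 or 3 there was 1, and DESeq2 called 2 (not Twf1). The other isoform of the Arpc1 subunit, Arpc1a, stood at 101 ± 7.21 and 123 ± 6.69 CPM (adjusted p = 0.0686 in edgeR's quasi-likelihood test); it was chosen after its value was seen.

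Neither of the 2 actin genes passed, nor did either reach an unadjusted p under 0.05. Actb, which encodes cytoplasmic beta-actin, was the most abundant of the 45 genes per kilobase. It was at 1771, 2067 and 2026 CPM in control and 2055, 2001 and 1917 CPM in STZ pools, with the groups overlapping (log2 fold change 0.03 ± 0.10, adjusted p = 0.904 in edgeR's quasi-likelihood test). Actg1, the gamma-actin gene, was at 1083 ± 10.9 and 1180 ± 73.3 CPM (0.12 ± 0.09). Actb was 64.3% ± 1.90 of the sum of both per kilobase in control and 62.9% ± 1.82 in STZ pools. The coding parts of the 2 genes are alike, so reads shared between them could be split either way by the counting, which is not described in the sources used here.

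Of 5 genes of filament turnover and elongation, Cfl1 rose. This gene encodes the non-muscle cofilin and was 95.3% ± 0.670 of the cofilin sum per kilobase in control pools, the muscle-type Cfl2 making up the rest. Cfl1 was at 665, 762 and 773 CPM in control and 976, 915 and 903 CPM in STZ pools, without overlap (log2 fold change 0.35 ± 0.10, adjusted p = 0.0404 in edgeR's quasi-likelihood test). The call was lost on leaving out control pool 1 (0.169), control pool 2 (0.0521), STZ pool 1 (0.186), STZ pool 2 (0.067) or STZ pool 3 (0.111). Cfl2 was at 0.05 ± 0.09 and profilin 1 (Pfn1), the fifth most abundant of the 45 genes, at 0.13 ± 0.11. The Ena/VASP genes, which lengthen filaments at their growing ends, had negative values that did not pass, at -0.13 ± 0.11 for Vasp and -0.26 ± 0.13 for Evl. Evl was at 10.6 ± 0.379 and 8.81 ± 0.392 CPM per kilobase, the lowest mean of the 45 genes over the 6 libraries, although Pdlim1 was lower in control pools (9.34 ± 3.11).

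Tropomyosins gave 0 calls in 4 genes, and 1 (Tpm4) had an unadjusted p under 0.05. Tpm4, the most abundant of them, was at 431, 431 and 460 CPM in control and 571, 507 and 542 CPM in STZ pools. The groups did not overlap, yet the gene missed the threshold (log2 fold change 0.29 ± 0.09, adjusted p = 0.0611 in edgeR's quasi-likelihood test), which it passed without control pool 3 (0.0391) and in DESeq2 (0.0274). Tpm3 was at 0.18 ± 0.08, also without overlap, Tpm1 at -0.09 ± 0.10 and Tpm2 at -0.45 ± 0.21. As a share of the tropomyosin sum per kilobase, Tpm4 was 48.1% ± 1.05 in control and 52.5% ± 0.992 in STZ pools, Tpm1 18.5% ± 1.6 and 15.5% ± 0.951, and Tpm2 4.43% ± 0.574 and 2.85% ± 0.743. Each of these 3 shares had groups that did not overlap and p = 0.10 in the exact permutation test, 0.167 adjusted. Tpm1 has 10 listed transcripts, so its single value sums up several isoforms in a way that is not given in the sources used here.

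Of 11 genes of myosin and its regulators, 3 rose, and all 3 belong to the calponin family, whose proteins bind along filaments and, in calponin itself, restrain myosin. Tagln2, the non-muscle relative of the smooth muscle protein transgelin, was at 459, 485 and 484 CPM in control and 669, 639 and 645 CPM in STZ pools. These groups stood clearly apart (log2 fold change 0.45 ± 0.09, adjusted p = 0.00519 in edgeR's quasi-likelihood test, held under 15 of 15 settings). Cnn2 was at 166, 170 and 172 CPM in control and 234, 219 and 221 CPM in STZ pools.

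The difference for Cnn2, calponin 2, was 0.41 ± 0.08 on the log2 scale (adjusted p = 0.00734 in edgeR's quasi-likelihood test), and it lost its call without STZ pool 1 (adjusted p = 0.0512). Cnn3, calponin 3, was at 403, 433 and 463 CPM in control and 574, 553 and 519 CPM in STZ pools. Its log2 fold change was 0.34 ± 0.09 (adjusted p = 0.0362 in edgeR's quasi-likelihood test), and the call was lost without control pool 1 (0.154), control pool 2 (0.0665), STZ pool 1 (0.17), STZ pool 2 (0.0725) or STZ pool 3 (0.0783), and with libraries thinned to equal depth (0.0575). The balance of the calponins hardly moved, with Cnn2 at 30.6% ± 1.09 and 31.5% ± 0.813 of their sum per kilobase.

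The motor and its light chains did not pass. Myl6, an essential light chain and the most abundant gene of the group per kilobase, was at 507, 468 and 403 CPM in control and 558, 425 and 536 CPM in STZ pools, with overlap (0.14 ± 0.12, adjusted p = 0.540 in edgeR's quasi-likelihood test). Myh9, the heavy chain of non-muscle myosin IIA, was at 0.15 ± 0.09, and Myh10, that of myosin IIB, at -0.23 ± 0.16. Myh9 was 92.0% ± 0.179 of their sum per kilobase in control and 93.7% ± 1.24 in STZ pools. The regulatory light chains Myl12a and Myl12b were at 0.21 ± 0.11 and 0.19 ± 0.09, and are near-identical copies whose reads may not be told apart. The smooth muscle type light chain Myl9 was at -0.29 ± 0.30, the kinase of the light chains Mylk at -0.28 ± 0.13, and caldesmon (Cald1), which holds myosin off the filament, at -0.41 ± 0.12. Cald1 had groups that did not overlap and just missed the threshold (adjusted p = 0.0538 in edgeR's quasi-likelihood test), which it passed in DESeq2 (0.0202), with upper-quartile normalization (0.0485) and with libraries thinned to equal depth (0.0335).

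Several of the genes with lower values in STZ pools are also abundant in contractile cells that wrap capillaries, and markers of those cells were lower too. Over 12 mesangial and mural markers the summed level was 1604 to 1696 CPM in control and 844 to 1286 CPM in STZ pools. Of the 12, 4 were called lower (33.3%, against 4.32% of all tested genes), namely Rgs5, Cspg4, Notch3 and Myh11. For 10 the groups did not overlap, all lower in STZ (83.3%, against 29.1% of all tested genes in either direction). The median log2 fold change was -0.82. The number called lower was 3 without control pool 1, control pool 2 or STZ pool 1, and 7 without STZ pool 2. With all pools it was 5 in DESeq2, 7 in limma-voom and 7 in the fit that is not robust. It was 6 with libraries thinned to equal depth and 8 with the pool number as a replicate block. No marker of this list was at 0: Pdgfrb, a growth factor receptor of these cells chosen after its values were seen, was at 243, 222 and 229 CPM in control and 99.9, 53.4 and 117 CPM in STZ pools. STZ pool 2 had the lowest Pdgfrb, and it was also the lowest of the STZ pools for Cald1 (228 CPM, others 314 and 318), Myl9 (64.7, others 122 and 139) and Tpm2 (20.7, others 30.8 and 38.0). For Cttnbp2 the 3 STZ pools were at 62.6, 63.9 and 66.6 CPM, and control pool 3, with the lowest podocyte sum of the controls, was at 159 CPM. The part of mesangial, mural and podocyte RNA in these differences, that of Cttnbp2 included, was not tested. Over the 10 endothelial markers the median log2 fold change was 0.36, with 7 higher and 0 lower without overlap (70.0%, against 29.1% of all tested genes). The part of endothelial RNA in the 9 genes of the set that rose was not tested either.

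**Figure D3:**
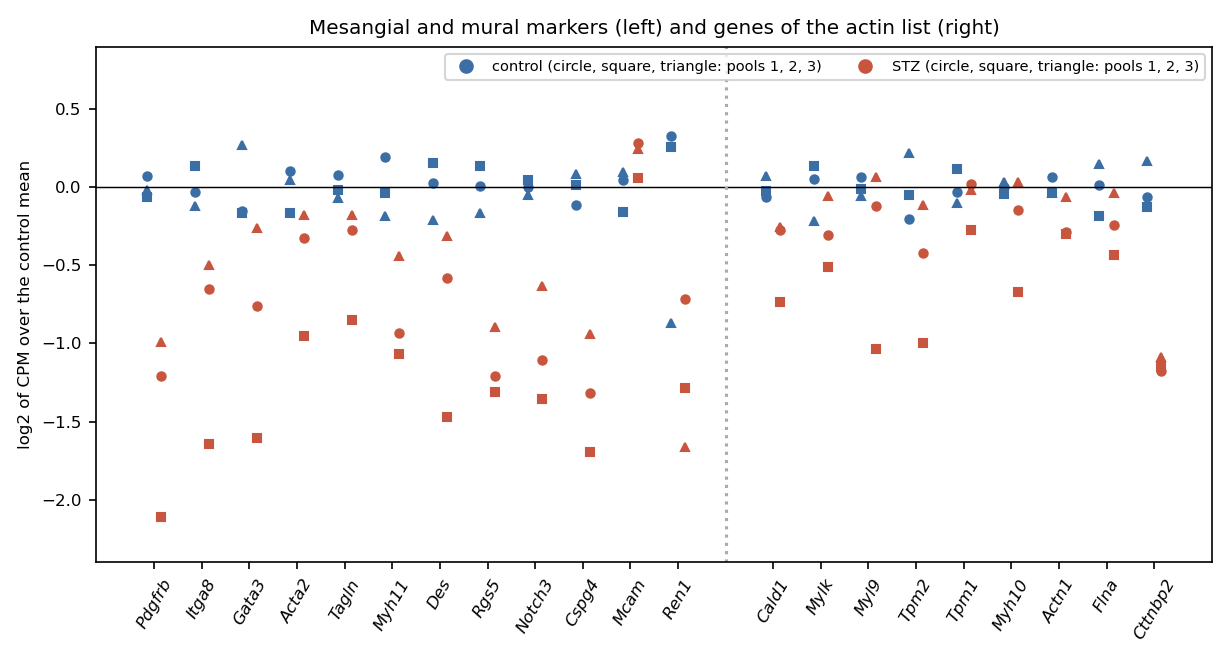
Level of each library relative to the control mean (log2 of CPM over that mean) for 12 mesangial and mural markers (left) and 9 genes of the actin set chosen after their values were seen (right), with 1 symbol per pool. STZ pool 2 (square) is lowest for Pdgfrb, Cald1, Myl9 and Tpm2. The 3 STZ pools of Cttnbp2 lie at 62.6 to 66.6 CPM, and those of the marker Rgs5 at 27.9 to 37.2 CPM.

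Crosslinkers, which tie filaments into bundles and nets, gave 0 calls in 3 genes in edgeR, DESeq2 and limma-voom, and 1 (Actn1) had an unadjusted p under 0.05. Actn4, alpha-actinin 4 and the most abundant of them, was at 751, 763 and 723 CPM in control and 800, 699 and 843 CPM in STZ pools, with overlap (0.07 ± 0.10, adjusted p = 0.741 in edgeR's quasi-likelihood test). Actn1 was at -0.21 ± 0.09 without overlap, and filamin A (Flna) at -0.23 ± 0.12. Actn1 was 12.8% ± 0.465 of the alpha-actinin sum per kilobase in control and 10.8% ± 0.638 in STZ pools (p = 0.10, exact permutation test).

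The ezrin, radixin and moesin proteins anchor cortical actin to the plasma membrane, and 1 of their 3 genes rose. Msn was at 851, 915 and 975 CPM in control and 1209, 1124 and 1165 CPM in STZ pools, without overlap (log2 fold change 0.35 ± 0.10, adjusted p = 0.0336 in edgeR's quasi-likelihood test). It lost its call without control pool 1 (0.146), control pool 2 (0.0588), STZ pool 1 (0.16) or STZ pool 3 (0.123). Rdx was at 0.10 ± 0.09. Ezr, the ezrin gene, which podocytes also express, was at 121, 125 and 76.2 CPM in control and 88.0, 70.7 and 91.1 CPM in STZ pools (-0.38 ± 0.19). Control pool 3, the one with the lowest podocyte sum, lay within the STZ range, and without it Ezr was called lower (adjusted p = 0.00452 in edgeR's quasi-likelihood test). Leaving out the control pool that overlaps the STZ pools favours such a call, and the part of podocyte RNA was not tested. Moesin made up 62.8% ± 2.11 of the family sum per kilobase in control and 68.4% ± 0.739 in STZ pools, without overlap (p = 0.10, exact permutation test). Msn and Flna lie on the X chromosome, and their values, one higher and one lower, stand beside the difference in Xist given above.

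**Figure D4:**
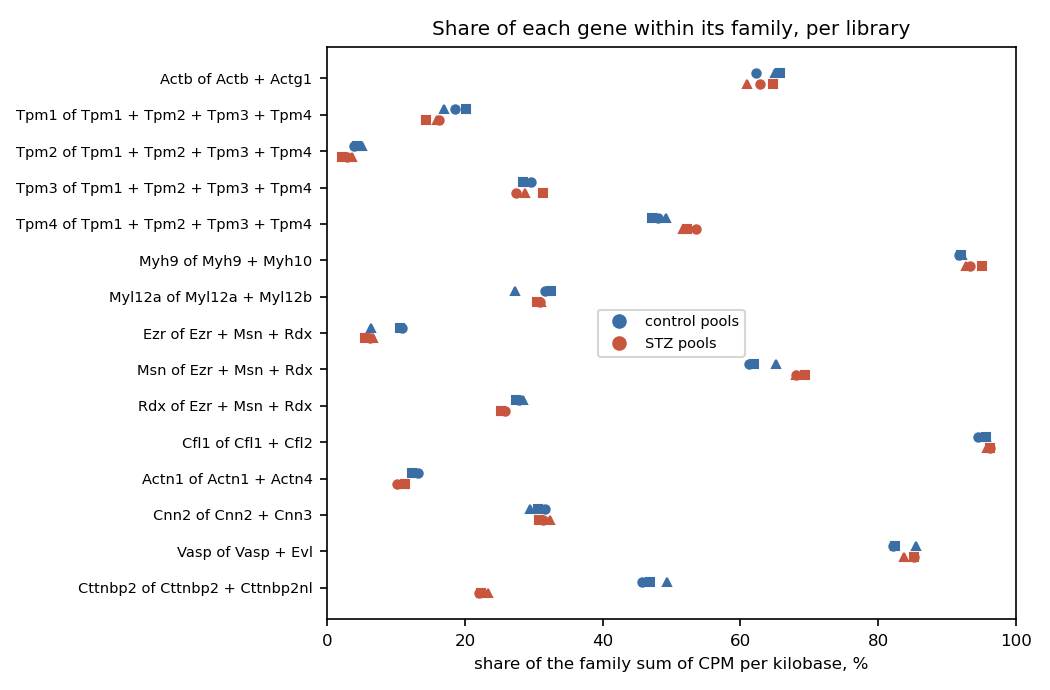
Share of each gene in the sum of CPM per kilobase of its family, in percent (horizontal axis), in each control (blue) and STZ (red) pool, with 1 symbol per pool number. Cttnbp2 is at 45.7 to 49.3% of its pair in control and 22.1 to 23.3% in STZ pools, a difference of -24.7 points, and no other share plotted differed by more than 5.61 points.

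Adhesion-linked proteins connect stress fibres to integrins, and 1 of 8 genes rose and 0 fell (12.5% called, against 9.78% of all tested genes). Paxillin (Pxn), a scaffold of focal adhesions, was at 243, 238 and 246 CPM in control and 291, 316 and 291 CPM in STZ pools, without overlap (log2 fold change 0.30 ± 0.09, adjusted p = 0.0419 in edgeR's quasi-likelihood test). It lost its call without control pool 1 (0.124), control pool 2 (0.082), STZ pool 1 (0.118), STZ pool 2 (0.116) or STZ pool 3 (0.109), with upper-quartile normalization (0.0509) and with libraries thinned to equal depth (0.0624). Talin 1 (Tln1), which couples integrins to actin and was the most abundant gene of the group per kilobase, was at 748, 728 and 752 CPM in control pools. In STZ pools it was at 871, 875 and 908 CPM, so the groups stood apart while the test missed the threshold (0.25 ± 0.09, adjusted p = 0.0960 in edgeR's quasi-likelihood test).

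The other adhesion-linked genes had small or negative values. Vinculin (Vcl) was at -0.06 ± 0.11, zyxin (Zyx) at -0.07 ± 0.12, and Lasp1, an actin-binding LIM protein, at -0.13 ± 0.09. The PDZ and LIM domain genes Pdlim1, Pdlim5 and Pdlim7 were at 0.25 ± 0.22, -0.06 ± 0.08 and -0.38 ± 0.14. Pdlim7 had groups that did not overlap (35.3, 35.3 and 44.2 against 26.3, 34.8 and 26.4 CPM), with control pools 1 and 2 close to STZ pool 2. It passed without STZ pool 2 (adjusted p = 0.0342) and with libraries thinned to equal depth (0.0368), while Tln1 passed in DESeq2 (0.0412). Over all 35 genes of the set that did not pass, log2 fold changes ran from -0.45 to 0.29, 18 above and 17 below 0, and 6 had an unadjusted p under 0.05.

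Levels per kilobase ordered the set, by the mean over the 6 libraries, from Actb at 938 to 1094 CPM per kilobase down to Evl at 8.44 to 10.9. Below Actb came Myl6 (657 to 908), Cfl1 (561 to 824), Actg1 (568 to 648) and Pfn1 (410 to 551). Actb stood above the range of every other gene, and the range of Cfl1 overlapped those of Myl6 and Actg1, so its place beside either is within the spread between libraries. The ranges of Myl6 and Actg1 did not overlap. At the lower end the ranges of Tpm2, Myh10, Pdlim1 and Evl overlapped as well. In control pools Cttn was 62.2 ± 5.81 CPM per kilobase, above both of its binding-protein genes.

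**Figure D5:**
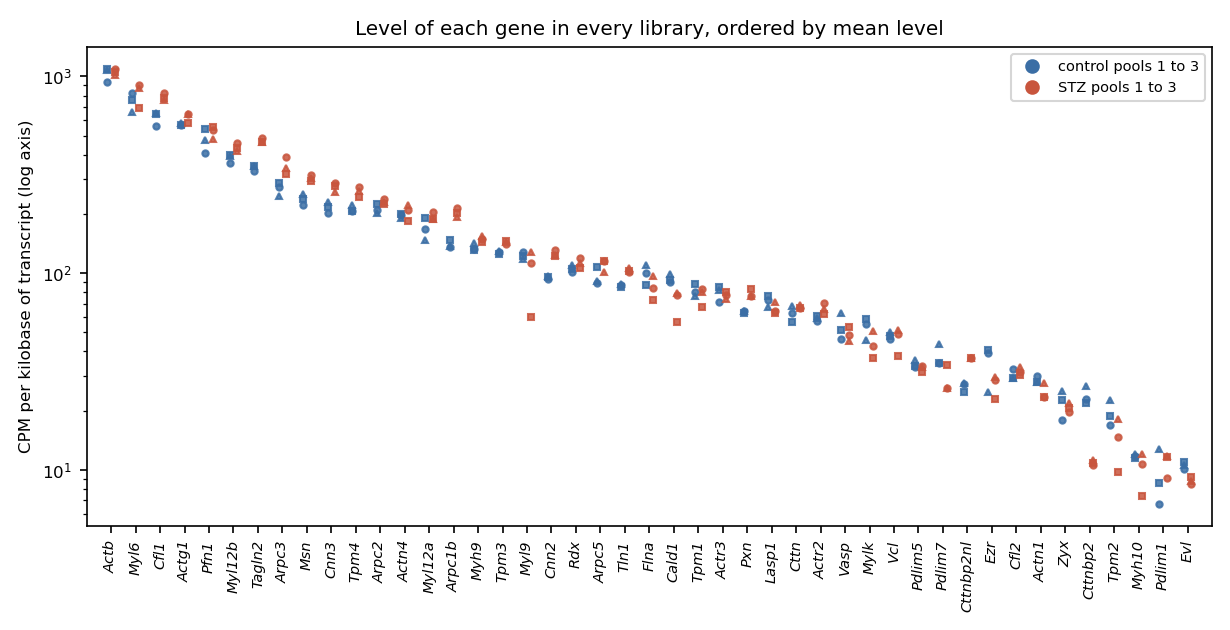
Level of each of the 45 genes in each library in CPM per kilobase of listed transcript length, on a log axis, ordered by the mean over the 6 libraries, with control pools in blue and STZ pools in red. Actb has the highest mean (range 938 to 1094) and Evl the lowest (8.44 to 10.9).

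Genes that act upstream of these filaments were read from a list of their own. Of 19 Cdc42 effectors and genes of the WASP and WAVE machinery, 4 rose and 1 fell (26.3% called, against 9.78% of all tested genes). Cdc42ep4, an effector of the GTPase Cdc42, was at 98.2, 99.9 and 88.8 CPM in control and 303, 312 and 295 CPM in STZ pools, a log2 fold change of 1.66 ± 0.09 (adjusted p = 1.79e-07 in edgeR's quasi-likelihood test). That is larger than the value of any of the 45 genes. Its relatives Cdc42ep2 (0.52 ± 0.09) and Cdc42ep1 (0.45 ± 0.09) and the membrane-bending Baiap2 (0.77 ± 0.10) were higher as well, and Fnbp1l, whose product links curved membrane to the WASP machinery, was lower (-0.38 ± 0.10). The 4 calls higher held in every setting run, while Fnbp1l passed only without control pool 3 among the runs with 1 library left out (adjusted p up to 0.152 in the others).

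The lists nearest to cortactin and its binding proteins are small, and their counts stand beside the 9.78% called among all genes. Both proteins of the Cttnbp2 pair are known to join STRIPAK, an assembly of striatin with the phosphatase PP2A, and 0 of its 16 tested genes passed in edgeR's quasi-likelihood test, DESeq2 or limma-voom, with 2 at an unadjusted p under 0.05. The genes of highest mean CPM, not scaled to length, were Stk25, a kinase (-0.03 ± 0.10), and Ppp2r1a, the scaffold subunit of PP2A (0.12 ± 0.10), with the striatin gene Strn4 (-0.21 ± 0.10) next to it within the spread between libraries. Of 15 known partners and kinases of cortactin, 0 passed in these 3 tools, with 5 at an unadjusted p under 0.05, and 1 was called lower without control pool 3. Those of highest CPM were Shank3 (0.04 ± 0.19), a scaffold that binds cortactin, and the tight junction gene Tjp1 (0.26 ± 0.09), whose groups did not overlap. Of 8 genes of serum response factor and its actin-sensing cofactors and targets, Mkl2, one of the cofactors, rose (0.53 ± 0.10). Fhl2, a LIM protein gene counted among the targets, was at 73.0, 76.5 and 73.8 CPM in control and 34.4, 15.7 and 44.5 CPM in STZ pools, without overlap. It missed the threshold (-1.24 ± 0.39, adjusted p = 0.142 in edgeR's quasi-likelihood test), which it passed in DESeq2 (0.0342), limma-voom (0.0123), the fit that is not robust (0.0175) and without STZ pool 2 (0.000459). The target Ctgf (-0.55 ± 0.23), also without overlap, passed in DESeq2 (0.0157), so lower calls in this list numbered 0 to 2 by setting. STZ pool 2, lowest for Fhl2, was also the pool of lowest Pdgfrb. Among the STZ pools it was lowest too for the podocyte sum (5633 CPM), Myl6 (425 CPM) and Actn4 (699 CPM). The part of RNA of other cells in the Fhl2 values was not tested. Srf itself was at 62.0 ± 10.6 and 58.0 ± 3.74 CPM and the other cofactor Mkl1 at 42.7 ± 6.25 and 43.0 ± 2.57 CPM; these 2, Fhl2 and Ctgf were chosen after their values were seen.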

How the data were processed

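The 6 libraries are RNA-seq of EYFP+ glomerular cells, 3 control and 3 STZ, each of 4 pooled mice. The deposited tables, 1 per library, give each gene 1 value, which is read as an expected count, beside coordinates and transcript length. The submitters' processing notes list mm10 as build and limma as tool, with no role. The sources used here do not name aligner, counter or strand setting. Values with a fraction occurred in 2251 genes, 9 of the 45 among them, and 14 of the 45 have several listed transcripts (Cttnbp2nl and Pxn among those called). The 34 blank cells were read as 0, values were rounded, and 1 was added to listed starts.

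The test was the quasi-likelihood test of edgeR 4.0.16 under R 4.3.3 (filterByExpr, TMM, robust fit, two-sided, Benjamini-Hochberg over 12786 genes, threshold 0.05). CPM use TMM library sizes. Alternatives used DESeq2 1.42.0 and limma 3.58.1. Scripts were tested on simulated data. The 45 genes and the lists were chosen with earlier results of these data known. Called genes, the most abundant gene of each role and the 3 cortactin genes are given in full, and of other lists up to 4 called genes with the smallest p, or the 2 most abundant; 1 other list is not reported here. The same numbers on control and STZ pools come from the labels and name pools only.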

Additional observations from a re-analysis of the deposited data

How the results depend on the processing

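Of 675 values of the 45 genes under 15 alternative settings, 628 kept direction and side of the threshold, 32 lost and 9 gained a call, and 6 changed sign. Of the 10 called genes, Cttnbp2, Cttnbp2nl, Arpc1b and Tagln2 kept their call in all 15. Lower calls among the 45 numbered 2 with upper-quartile normalization, 2 with DESeq2, 3 with libraries thinned to equal depth and 2 at a threshold of 0.10, which gave 866 lower calls over all genes. Scaling choices moved the median of all genes by less than 0.1 on the log2 scale.

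Leaving out 1 library at a time gave 4 to 11 calls among the 45 (3 to 9 higher, 1 to 2 lower), 662 to 1291 over all genes (426 to 695 higher, 236 to 596 lower) and a median of the 45 of 0.0627 to 0.14. The lowest of each came without STZ pool 1, except for lower calls among the 45, which stood at 1 in 4 of 6 runs. All genes gave 720 calls without control pool 1, and 355 lower calls without STZ pool 3. Over these runs the log2 fold change ran from -0.0388 to 0.0701 for Actb, -0.112 to 0.0172 for Actr3, -0.21 to 0.0396 for Zyx, -0.219 to 0.00247 for Vasp, -0.141 to 0.000668 for Tpm1 and -0.145 to 0.0658 for Vcl, so their sign changed with the libraries used. The same was seen for Mkl1 (-0.0444 to 0.139, and -0.0867 when thinned), Shank3 (-0.197 to 0.19), Srf (-0.229 to 0.0167) and Stk25 (-0.135 to 0.0253). The cause was not tested, and fewer libraries entered each run.

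With the pool number as a replicate block, 5 of the 45 were called, 4 of them higher (Arpc3, Cfl1, Cnn3, Msn and Pxn lost their calls). Same-numbered pools did not deviate together (r = 0.119, -0.128 and -0.163), and not every pool correlated best with its own number, so the numbers do not show pairing. Each group has 3 pools, the STZ pools are deeper, and no exact permutation test over 3 against 3 can pass 0.10.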
